A study of Rattus norvegicus with 4 samples.

Results

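The potassium channel genes of the newborn rat hippocampus were taken as the rows with a numeric gene ID whose symbol begins with Kcn, a letter code and a number, without Kcne2 and Kcnj13. The rule found 85 genes among 17445 rows. Hippocampal RNA was sequenced from Wistar rat pups on postnatal day 1 in 4 groups, a control group and a BPA group of each sex. The dams of the BPA groups received bisphenol A (BPA, a monomer of polycarbonate plastic with estrogen-like activity) at 5000 µg/kg of body weight every day from gestation day 1 until they gave birth, and the dams of the control groups received vehicle. Each group was 1 library made from 3 pooled hippocampi, so that no group had a replicate library and the pups within a pool cannot be separated. The 2 sexes were the only repeats of a treatment, and a p-value across the 4 libraries therefore measures only the spread between these libraries.

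Potassium channels let potassium leave a neuron and so set its resting potential, end each action potential and space the next. Voltage-gated pores of the Kcna, Kcnb, Kcnc and Kcnd genes open on depolarization, Kcnq pores carry the slow M-current that holds back repeated firing, and Kcnh pores form the EAG, ERG and ELK channels. Kcnj pores pass current inward and include the targets of G proteins and of ATP, Kcnk pores form leak channels, and Kcnma, Kcnn and Kcnt pores are opened by calcium or sodium. In the hippocampus these channels control dendritic excitability, and in glia they clear potassium from the extracellular space. Many subunits form no working pore alone. Among them are the beta subunits (Kcnab), the calcium-binding KChIP proteins (Kcnip), the small single-span Kcne proteins and the BK beta subunits (Kcnmb). The silent alpha subunits (Kcnf, Kcng, Kcns and Kcnv) also belong here and act only when joined to a Kcnb pore.

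All 85 members were found by gene ID in RefSeq (build GRCr8) under the same symbol, and 58 had a promoter sequence there, read as the 250 bases before the annotated start of the gene. The number of CG dinucleotides in these 250 bases ranged from 1 to 44 with a median of 12.5. The 39 members with a mean of at least 1 FPKM (fragments scaled by transcript length and by library depth, a level per length) had a median of 16 and an interquartile range of 10 to 24. The 19 members under 1 FPKM had a median of 7, with an interquartile range of 4.5 to 10 and a full range of 1 to 39. The same medians were 17 over 8890 rows with a gene ID at 1 FPKM or more and 5 over 2406 such rows below it, so that the members lay close to other rows of their level. The sequences of 4 members are shown, a sequence rich and a sequence poor in CG dinucleotides and those of 2 genes that the comparisons turn on: Kcnmb4, the member with the most CG dinucleotides, Kcnmb1, a BK beta subunit at the lowest levels, and Kcne5 and Kcnj8, whose values come later. CG dinucleotides are in capitals and each sequence runs 5′ to 3′ on the strand of its gene. Kcnmb4 is the minus strand of chr7:54005102-54005351, Kcnmb1 the plus strand of chr10:19061849-19062098, Kcne5 the minus strand of chrX:110727850-110728099 and Kcnj8 the minus strand of chr4:177246549-177246798, all in GRCr8.
Kcnmb4: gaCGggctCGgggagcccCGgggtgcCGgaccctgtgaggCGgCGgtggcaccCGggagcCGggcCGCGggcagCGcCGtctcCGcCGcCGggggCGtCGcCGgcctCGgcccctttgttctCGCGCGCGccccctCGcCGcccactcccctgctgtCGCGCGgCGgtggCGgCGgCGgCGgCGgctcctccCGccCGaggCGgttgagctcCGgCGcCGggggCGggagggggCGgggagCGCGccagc
Kcnmb1: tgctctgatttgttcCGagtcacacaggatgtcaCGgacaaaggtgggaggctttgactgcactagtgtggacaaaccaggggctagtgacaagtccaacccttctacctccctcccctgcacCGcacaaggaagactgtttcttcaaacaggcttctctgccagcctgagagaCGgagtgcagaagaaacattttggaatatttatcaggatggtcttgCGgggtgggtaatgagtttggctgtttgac
Kcne5: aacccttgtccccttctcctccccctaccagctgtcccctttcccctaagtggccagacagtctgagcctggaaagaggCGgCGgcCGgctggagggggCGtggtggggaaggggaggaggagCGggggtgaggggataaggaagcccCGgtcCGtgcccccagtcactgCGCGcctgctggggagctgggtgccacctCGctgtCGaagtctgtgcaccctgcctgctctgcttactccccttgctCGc
Kcnj8: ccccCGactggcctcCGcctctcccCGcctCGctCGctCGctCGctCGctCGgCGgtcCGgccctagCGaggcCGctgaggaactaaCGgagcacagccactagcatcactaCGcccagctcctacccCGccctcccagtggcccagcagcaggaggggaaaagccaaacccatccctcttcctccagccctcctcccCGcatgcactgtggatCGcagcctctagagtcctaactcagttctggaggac

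The Kcnmb4 sequence held 44 CG dinucleotides and was 84.4% G or C. Kcnmb1 held 5 and was 50.8% G or C. Kcne5 and Kcnj8 were between them with 12 and 18. On either strand, the TATA box letters TATAAA were in 0 of the 58 member sequences, against 13.1% of all 27456 promoters of the same length and 6.09% of those of rows at 1 FPKM or more. The GC box letters GGGCGG were in 30 of 58 (51.7%), against 32.4% of all promoters and 60.2% of those of rows at 1 FPKM or more. TTCAGCACC, the letters of a part of the site of the repressor REST, were in the sequence of Kcnh6 alone among the members and in 0.317% of all promoters. The palindromic estrogen response element (consensus letters with any 3 bases between its arms) was in 0 of the 58 and in 0.0219% of all promoters. Across the 58 members the level in the vehicle libraries and the CG count had a Spearman rho of 0.43, as a description, since the members share the libraries and base composition. The same rho was 0.41 over 11296 rows with a gene ID.

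**Figure D1:**
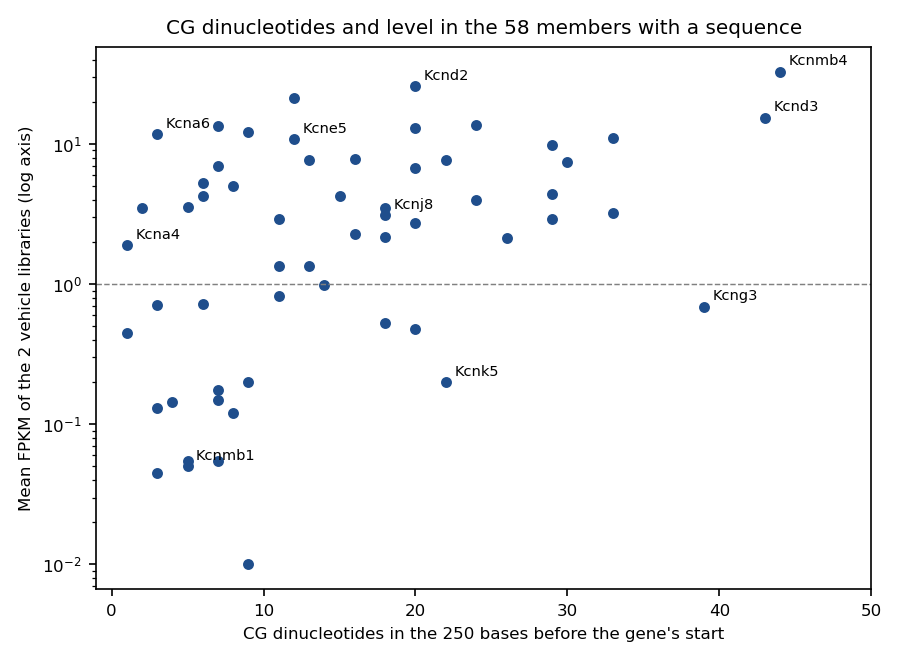
CG dinucleotides in the 250 bases before the gene's start (horizontal axis) against the mean FPKM of the 2 vehicle libraries (vertical log axis) for the 58 members with a sequence, with 1 FPKM as a dashed line. Kcnmb4 stands at the upper right with 44 CG dinucleotides, Kcnmb1 at the lower left with 5, and Kcna6, Kcna4 and Kcng3 lie away from the trend.

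The deposited values were FPKM, and the depth estimated from the steps of low values was 8560000 to 8820000 fragments per library, at which 1 FPKM over 1 kb is about 8.09 to 8.21 fragments. Intervals below come from these estimated fragments (95%, exact Poisson for a level and Clopper-Pearson for a fold) and cover counting error only, since fragments were not counted as molecules. Values of a gene in all 4 libraries run from control to BPA in males and then from control to BPA in females. The tissue label was checked with marker genes. All 8 hippocampal neuron markers were listed in every library, with sums of 420 to 440 FPKM. Single markers moved in opposite directions in females (control, BPA). Prox1 was at 12.81 and 7.61 FPKM, Zbtb20 at 23.65 and 16.17 and Neurod2 at 48.33 and 68.79. In both sexes alike, 2 of the 8 were higher in BPA and 2 lower. The sums of the 9 choroid plexus markers differed more, with 279 and 722 FPKM in males (control, BPA) and 21.0 and 56.7 in females. Ttr made up most of the sum in every library but female control, and the other 8 markers summed to 22.5 and 32.4 FPKM in males and 17.1 and 14.3 in females, so that in females the sum was higher in BPA with Ttr and lower without it. The 6 meningeal markers summed to 52.0, 37.5, 108 and 45.1 FPKM in the same order. In bulk tissue, fewer cells of a type and less RNA per cell cannot be told apart.

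Of the 85 members, 84 were listed in all 4 libraries. Kcne1, a Kcne subunit, was listed for females only, at 0.01 FPKM in female control and 0.22 in female BPA. At least 1 FPKM was reached by 63 or 64 members in each library and at least 10 FPKM by 16 to 19. The 10 highest members held 43.1 to 45.9% of the summed FPKM of all members, which was 533 and 530 in males (control, BPA) and 504 and 481 in females. The median member was at 3.37, 3.44, 3.27 and 2.74 FPKM in that order.

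**Figure D2:**
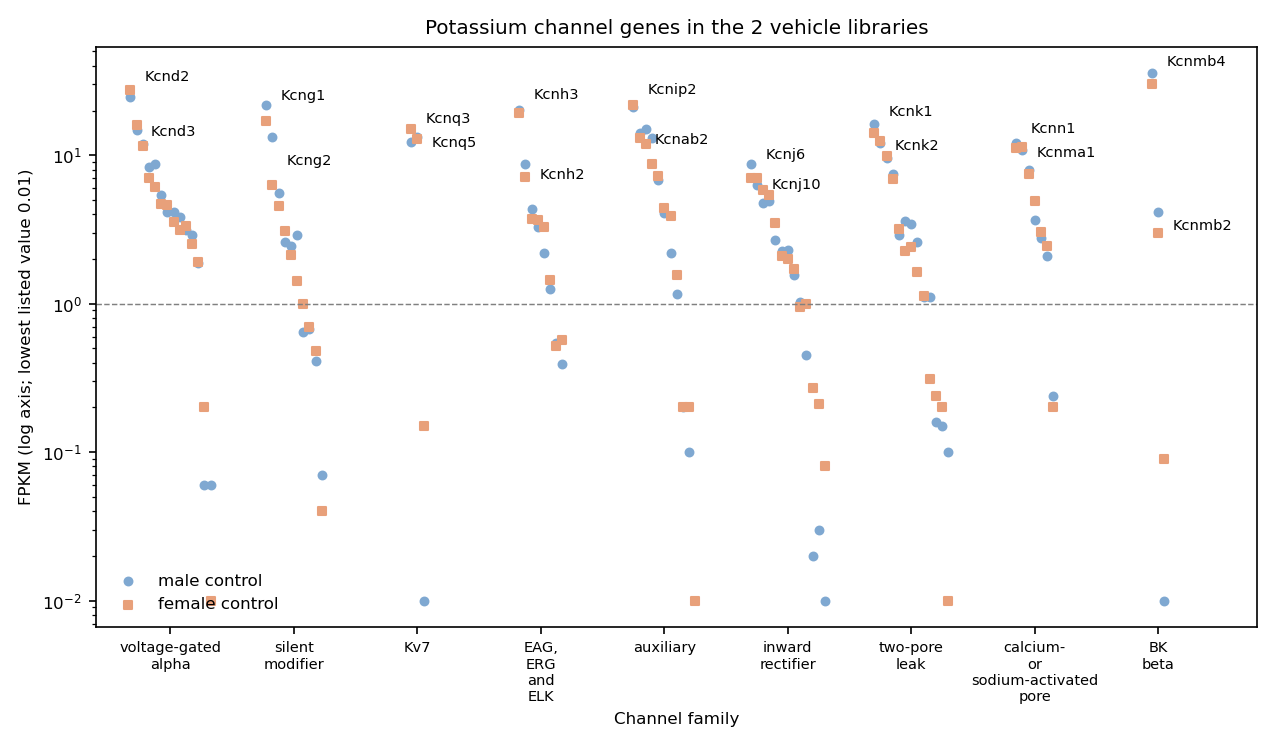
FPKM (log axis) of the listed members reported here in the male control (circles) and female control (squares) libraries, by channel family and in falling order within a family, with the first 2 members of each family named and 1 FPKM as a dashed line. Kcnmb4 and Kcnd2 stand high, and every family also holds at least 1 member under 1 FPKM in both libraries.

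Of the Kcnq pores, Kcnq3 was at 12.2 and 11.7 FPKM in males (control, BPA) and 15.1 and 12.5 in females, and Kcnq5, another neuronal member of the family, at 13.2, 11.8, 12.8 and 11.6 in the same order. The values of these 2 genes overlapped each other. Kcnq1, which is known from heart and epithelia, stayed between 0.01 and 0.15 FPKM, from 0 to 4 estimated fragments a library.

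Among the voltage-gated pores, Kcnd2 led. This A-type pore of hippocampal dendrites was at 24.5 and 21.9 FPKM in males (control, BPA) and 27.3 and 23.3 in females. Kcnd3, another A-type pore, was at 14.8, 16.0, 16.1 and 15.2 FPKM, below Kcnd2 in each library. Kcna1, a pore of axons, was at 5.43, 4.17, 4.66 and 4.06 FPKM. The other Kcna genes with a mean over 1 FPKM lay between 1.86 and 11.9 FPKM in all libraries, while Kcna5 and Kcna7 stayed at or below 0.20. The whole group of 16 took 22.1 to 24.0% of the summed FPKM of the members.

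The silent subunits were led by Kcng1, at 21.6 and 21.4 FPKM in males (control, BPA) and 17.1 and 18.8 in females, and by Kcng2. Among the Kcnh genes, Kcnh3, an ELK pore of the forebrain, was at 20.2, 19.6, 19.4 and 18.5 FPKM and Kcnh2, the ERG pore also known from the heart, at 8.68, 8.98, 7.15 and 6.87. Of the auxiliary subunits, Kcnip2, a KChIP partner of Kcnd pores, was at 21.1, 18.9, 21.7 and 18.8 FPKM, and Kcnab2, a beta subunit of Kcna pores, at 14.1, 13.9, 13.1 and 14.6. Both were above all Kcne genes among the members in the 2 vehicle libraries, of which Kcne5 alone passed 1 FPKM.

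The inward rectifiers were lower. Kcnj6, a pore opened by G proteins in hippocampal neurons, was at 8.67 and 7.37 FPKM in males (control, BPA) and 6.98 and 6.72 in females, and the astrocyte pore Kcnj10 was at 6.33, 6.60, 7.04 and 6.39. These 2 exchanged places between the vehicle libraries of the 2 sexes. Among the leak channels, Kcnk1 was at 16.3, 15.7, 14.1 and 13.0 FPKM and the mechanosensitive Kcnk2 at 12.01, 9.96, 12.53 and 12.03. The BK pore Kcnma1 was at 10.8, 10.6, 11.4 and 10.5 FPKM, the small-conductance calcium-activated pore Kcnn1 at 12.04, 11.67, 11.2 and 8.69, and its relative Kcnn2, known for the afterhyperpolarization of hippocampal neurons, at 7.91, 7.64, 7.45 and 8.27. The BK beta subunit of neurons, Kcnmb4, exceeded the BK pore in every library. It stood at 35.6, 40.5, 30.1 and 37.2 FPKM, while Kcnmb2 was at 4.16, 3.41, 2.97 and 1.93 and Kcnmb1, the smooth muscle form, between 0.01 and 0.09.

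The comparison of BPA with control in both sexes asked which of these genes differed with maternal exposure. It was made with limma on log2(FPKM + 1), in which differences of low genes are understated, restricted to the 13542 rows that were listed in all 4 libraries and averaged 1 FPKM or more. Of the 85 members 63 were tested, and the other 22 had lower means or, for Kcne1, were listed for 1 sex only. Among these 22, Kcnj14, an inward rectifier named here after its values were seen, was at 0.02, 0.83, 0.27 and 0.53 FPKM, from 0, 20, 6 and 12 estimated fragments. No member passed a Benjamini-Hochberg adjusted p of 0.05 (0 of 63), as no row did (0% of 13542). The smallest adjusted p of a member was 0.973. At an unadjusted p under 0.05 the members numbered 0 of 63 and the rows 637, or 4.7%. With sex as a covariate, 2 members had an unadjusted p under 0.05, Kcne5 (limma adjusted p = 0.426) and Kcnmb4 (limma adjusted p = 0.491), against 8.98% of rows, and none of the 63 passed the adjusted p, against 0.0148% of rows.

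Direction without a model was given by the groups. Both BPA libraries were above both controls for 8 of 63 members, against 13.8% of rows, and below both for 17 of 63, against 19.9%. Both shares of the members, 12.7% and 27.0%, thus lay within 10 percentage points of the rows. Among the 14 voltage-gated pores tested, 7 were below both controls and 1 above, and after quantile normalization 5 and 2. The calcium- or sodium-activated pores had 3 of 6 below and 0 above, and 1 of 6 below after quantile normalization. No silent subunit of 6 was above or below. The medians of the log2 differences were small in every family, from -0.14 for the 3 Kcnq genes to 0.023 for the silent subunits. Those of the inward rectifiers (-0.035) turned to 0.042 after quantile normalization. The same step took the leak channels from 0.00077 to 0.081, then the highest family, and the silent subunits from 0.023 to 0.073. Over all 63 members the median was -0.050, and over all rows -0.019, with 38 of 63 members below 0, against 54.4% of rows. Within both sexes alike, 11 of 63 members were higher in BPA, against 24.4% of rows, and 26 of 63 lower, against 31.6%, when each sex was read against its own control.

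**Figure D3:**
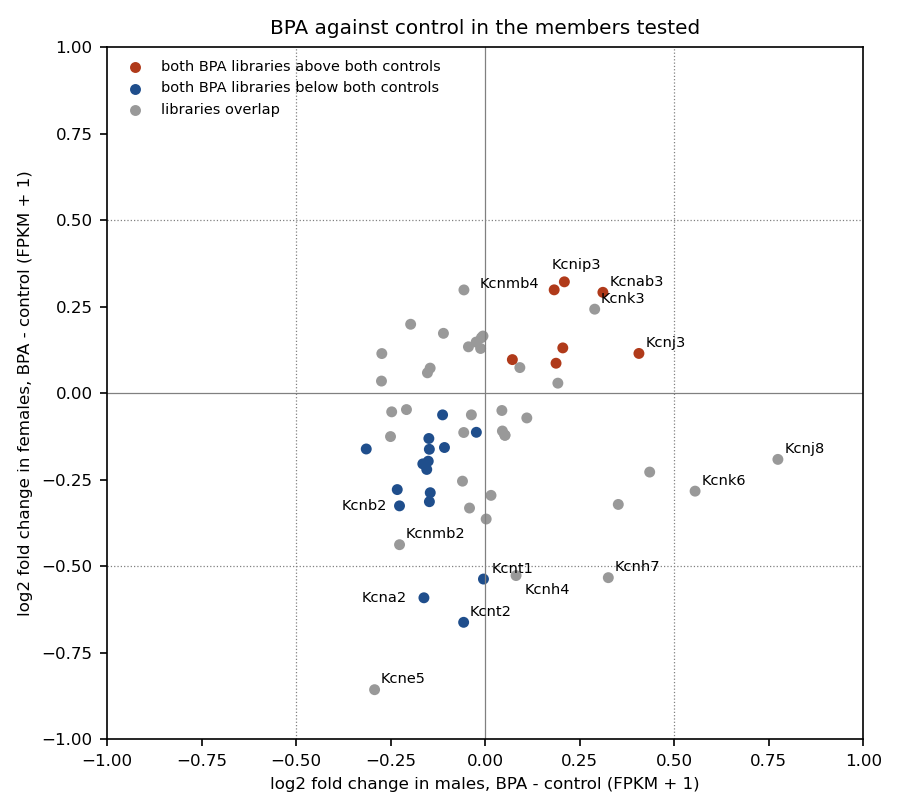
Log2 difference of FPKM + 1 between BPA and control in males (horizontal axis) and females (vertical axis) for the members tested that are reported here, 1 point a gene, with dotted lines at 0.5. Genes above both controls (red) lie to the upper right of 0 and those below both (blue) to the lower left, while Kcnj8 and Kcnk6 lie past 0.5 in males and Kcne5, Kcnt2, Kcna2, Kcnt1, Kcnh4 and Kcnh7 past -0.5 in females.

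Kcnmb4, with the FPKM given above, was higher in BPA by 0.18 on the log2 scale in males (fold 0.973 to 1.33 by counting error) and by 0.30 in females (1.04 to 1.47), with a mean of 0.24, the smallest unadjusted limma p of the members at 0.0932 and an adjusted p of 0.973. The highest control library of Kcnmb4, 35.6 FPKM, was just under its lower BPA library, 37.2 FPKM. With 1 library left out, its mean difference ranged from 0.12 (without female control) to 0.36 (without male control). Kcnd2 differed by -0.15 in males (fold 0.809 to 0.986) and -0.22 in females (0.775 to 0.939), with both BPA libraries below both controls. Its limma adjusted p was 0.973.

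Proteins known to join Kcnd pores were also read. Kcnip2, with the values given above, had both BPA libraries below both controls. The single-span partner Dpp6 was at 61.8 and 56.6 FPKM in males (control, BPA) and 57.6 and 55.9 in females, and Dpp10 at 14, 14.7, 17.4 and 17.3, so that Dpp6 was lower in BPA in both sexes and Dpp10 was not. Of the other partner genes with values, Amigo1, which joins Kcnb pores, was at 8.13, 10.5, 8.33 and 9.93 FPKM, and Vapb, which anchors them, at 43.0, 36.6, 40.5 and 32.9. Amigo1 was above and Vapb below its controls in both sexes. Lrrc55, a BK gamma subunit, was at 15.8, 19.6, 18.3 and 20.2 FPKM and thus also above its controls, as Kcnmb4 was. Vapa, Lgi1 and Abcc9 did not keep 1 direction, and Abcc8, the ATP-sensor partner of Kcnj11, was at 3.65, 3.23, 2.90 and 2.03. Lrrc26 and Lrrc38 stayed under 0.40 FPKM, and Lrrc52 and Cntnap2 were not analysed here. None of the partner genes passed the limma adjusted p, the smallest of which was 0.973.

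By the mean of both sexes, the largest differences upward were those of Kcnab3, Kcnj8, Kcnk3, Kcnip3 and Kcnj3. Kcnab3, a beta subunit of Kcna pores, was at 1.16 and 1.68 FPKM in males (control, BPA) and 1.55 and 2.12 in females, or 0.30 on the log2 scale, from 23 to 42 estimated fragments a library. Its 2 BPA libraries stood above both controls. Kcnip3, a KChIP protein that also binds DNA, was at 4.06, 4.85, 4.41 and 5.76 FPKM (mean difference 0.27), and the G-protein-opened pore Kcnj3 at 4.93, 6.86, 5.42 and 5.95 (0.26), both again without overlap. Kcnk3, an acid-sensitive leak pore, was at 3.59, 4.61, 2.28 and 2.88 FPKM (0.27), higher in BPA within each sex but with overlap, since both female libraries were below both male libraries.

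The largest mean differences downward were those of Kcne5, Kcna2, Kcnt2, Kcnmb2 and Kcnb2. Kcne5, a Kcne subunit encoded on the X chromosome, was at 13.0 and 10.4 FPKM in males (control, BPA) and 8.71 and 4.36 in females. It was lower in BPA within each sex, while male BPA remained above female control, so that the groups overlapped. Its mean difference was -0.57 (SE 0.357, limma adjusted p = 0.973), which was -0.029 without female BPA and -1.12 without male BPA. Each of these 2 fits set 1 BPA library against the controls of both sexes, so the difference between the sexes entered the value. Read against its own control, Kcne5 differed by -0.29 in males and -0.86 in females. Kcna2, an axonal pore of the Kcna group, was at 3.14, 2.70, 3.31 and 1.86 FPKM (mean difference -0.38), and Kcnt2, a sodium-activated pore, at 3.64, 3.46, 4.92 and 2.74 (-0.36). Both were below both controls in BPA, with the greater distance in females. With 1 library left out, the mean difference ranged from -0.56 to -0.19 for Kcna2 and from -0.54 to -0.18 for Kcnt2. Kcnmb2 had a mean difference of -0.33 with overlap, which ranged from -0.037 without female BPA to -0.63 without male BPA, and the delayed rectifier Kcnb2, at 2.92, 2.35, 2.51 and 1.80 FPKM, one of -0.28 without overlap. The value of Kcnb2 ranged from -0.41 to -0.15 with 1 library left out.

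**Figure D4:**
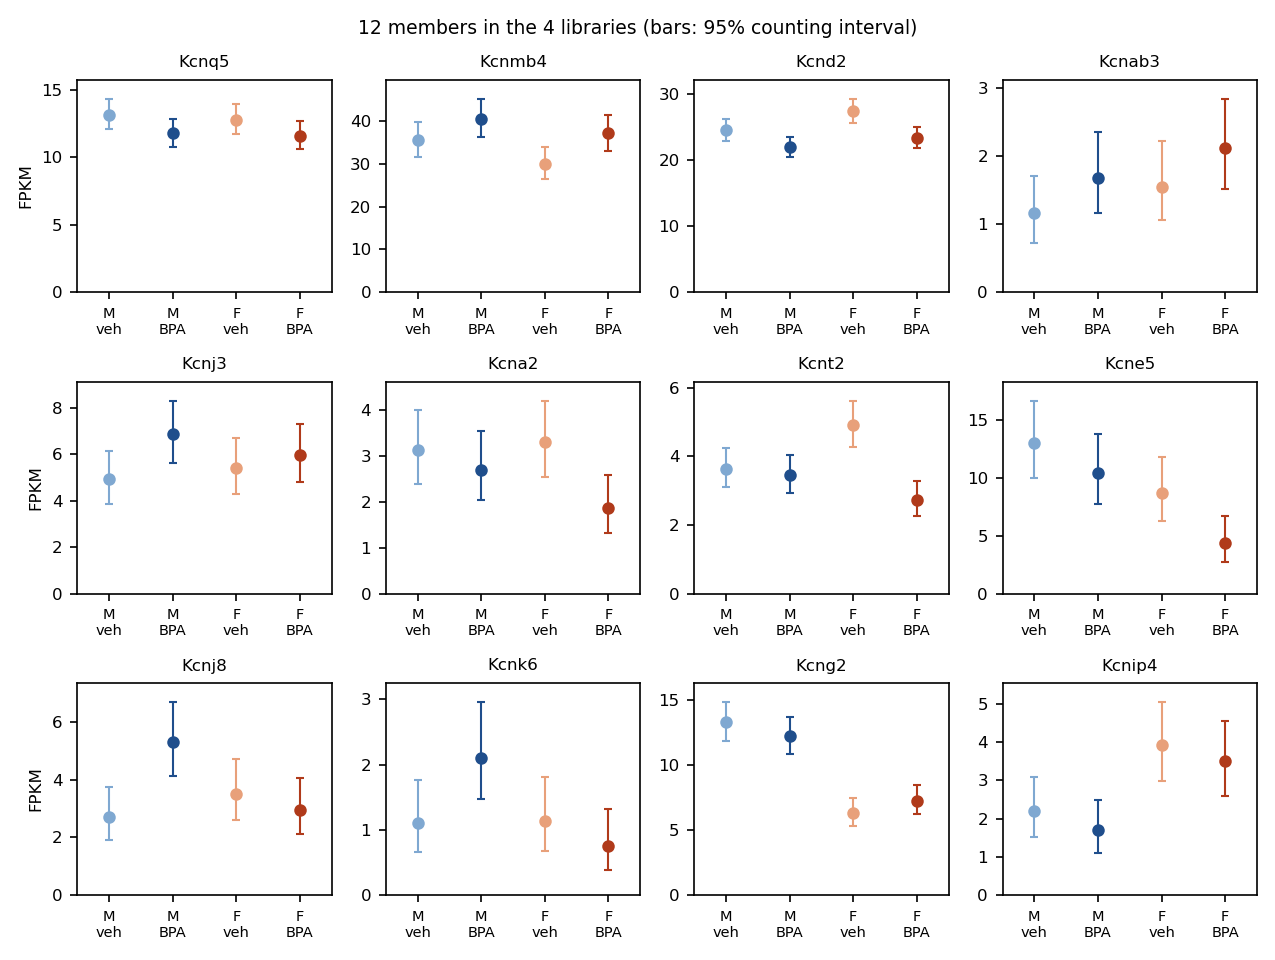
FPKM (vertical axes from 0) of 12 members in the 4 libraries, M for male and F for female, veh for vehicle control, 1 point a library with its 95% counting interval. Kcnmb4, Kcnab3 and Kcnj3 have both BPA points above both controls, Kcnq5, Kcnd2, Kcna2 and Kcnt2 both below, Kcnj8 and Kcnk6 a single high point in male BPA, Kcne5 its lowest point in female BPA, and Kcng2 and Kcnip4 a step between the sexes.

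Within a sex there was 1 library against 1, so the number of members past an absolute log2 difference of 0.5 is a description with no test. In males 2 of 63 members were past it upward, against 3.38% of rows, and 0 downward, against 3.88%. These were Kcnj8 and Kcnk6. Kcnj8, the pore of ATP-sensitive channels in pericytes and vascular muscle, was at 2.69 FPKM in male control (36 fragments, interval 1.90 to 3.75) and 5.31 in male BPA (70 fragments, 4.12 to 6.68), and at 3.5 and 2.94 in female control and female BPA. Male BPA thus stood above the other 3 libraries, by 0.77 on the log2 scale over its own control (fold 1.29 to 3.00 by counting error), and the female difference was -0.19. The pericyte and endothelial markers were read beside it, all 8 of them listed above the lowest value in every library. They summed to 126 and 116 FPKM in males (control, BPA) and 141 and 116 in females, with 0 of 8 higher in BPA in both sexes and 5 of 8 lower. Abcc9, the subunit that joins Kcnj8, was at 5.17, 4.60, 5.30 and 5.69 FPKM, and the pericyte marker Rgs5 at 25.1, 17.5, 30.4 and 20.7. In males 6 of the 8 markers were lower in BPA and 2 higher, and Rgs5 made most of the difference of the sum. The part of these cells in the value of Kcnj8 was not tested.

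Kcnk6, a leak pore of low level, was at 1.11 FPKM (18 fragments) and 2.10 FPKM (34) in male control and BPA, and at 1.13 FPKM (18) and 0.75 FPKM (12) in females. The difference was 0.56 in males, with a fold interval of 1.04 to 3.56, and -0.28 in females. By counting error alone, the interval of the fold lay above 1 for 9 of 63 members in males, against 12.7% of rows with a gene ID, and below 1 for 3 of 63, against 12.2%. The 3 below were Kcnd2, Kcnj6 and Kcnk2.

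In females 6 of 63 members were past -0.5, against 6.86% of rows, and 0 past 0.5, against 3.25%. They were Kcne5 (-0.86), Kcnt2 (-0.66), Kcna2 (-0.59), Kcnt1 (-0.54), Kcnh7 (-0.53) and Kcnh4 (-0.53), with 1 auxiliary subunit, both sodium-activated pores, 1 pore of axons and 2 pores of the Kcnh genes among them. Kcnt1, a sodium-activated pore whose variants are known from epilepsy, was at 2.10 and 2.09 FPKM in males (control, BPA) and 2.44 and 1.37 in females. Kcnh7, an ERG pore of brain, was at 2.2, 3.01, 3.27 and 1.95 FPKM, and Kcnh4, an ELK pore, at 3.30, 3.55, 3.67 and 2.24. For Kcnt1 the libraries of males were nearly level, and for Kcnh7 and Kcnh4 male BPA was above male control. The fold intervals in females were 0.282 to 0.865 for Kcne5, 0.442 to 0.70 for Kcnt2 and 0.370 to 0.870 for Kcna2. Over rows with a gene ID alone, 6.15% were past 0.5 in either direction in females and 3.46% in males. After quantile normalization 2 members were past -0.5 in females, against 4.62% of rows. The fold interval lay below 1 for 15 of 63 members, against 20.9% of rows with a gene ID, and above 1 for 3 of 63, against 13.8%. Kcnmb4 was among those above, as was Kcnc1, a pore of fast-firing interneurons.

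Beside the differences in females, the meningeal markers were lower in female BPA (45.1 FPKM in sum) than in female control (108), the 7 interneuron markers were 188 against 210, and the 6 markers of astrocytes and radial glia 1071 against 1171. The same sums in males were 37.5 against 52.0 for meninges, 228 against 235 for interneurons and 1028 against 1155 for astrocytes and radial glia. Among the hippocampal neuron markers, Prox1 and Zbtb20 were lower and Neurod2 higher in female BPA, with the values given above. None of these lists had a marker at the lowest value. Their part in the values of the channel genes was not tested. Of the other lists, the oligodendrocyte lineage summed to 136, 105, 111 and 94.0 FPKM, microglia to 30.0, 36.2, 38.8 and 33.8, red blood cells to 972, 811, 779 and 971 and the 7 listed markers of thalamus or hypothalamus to 20.6, 21.9, 25.4 and 19.9. Some sums hid opposite directions. In females Hbb and Hba1 were higher in BPA, while Alas2 and Slc4a1 were lower. In males the microglial Aif1, Cx3cr1, Csf1r and C1qa were higher in BPA, while P2ry12 and Tmem119 were lower. Fabp7 made up most of the sum of astrocytes and radial glia in every library, and Aldh1l1 of that list was higher in male BPA. The 2 genes left out of the members by the rule, which are also choroid plexus markers, were at 2.02, 4, 1.51 and 3.39 FPKM for Kcne2 and at 0.56, 1.13, 1.72 and 0.09 for Kcnj13.

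The other factor of the design was sex. Comparing the 2 female with the 2 male libraries, limma passed 0 of 63 members at an adjusted p of 0.05, against 0.00738% of rows. At an unadjusted p under 0.05, 6 of 63 members were lower in females, against 6.76% of rows, and 1 higher, against 3.88%. Both female libraries were below both male libraries for 21 of 63 members, against 22.5% of rows, and above for 4 of 63, against 19.8%. These counts were 22, against 21.2% of rows, and 7, against 22.6%, after quantile normalization. The median difference, female minus male, was -0.10 over the members and -0.0052 over all rows, and 44 of 63 members were below 0, against 51% of rows.

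**Figure D5:**
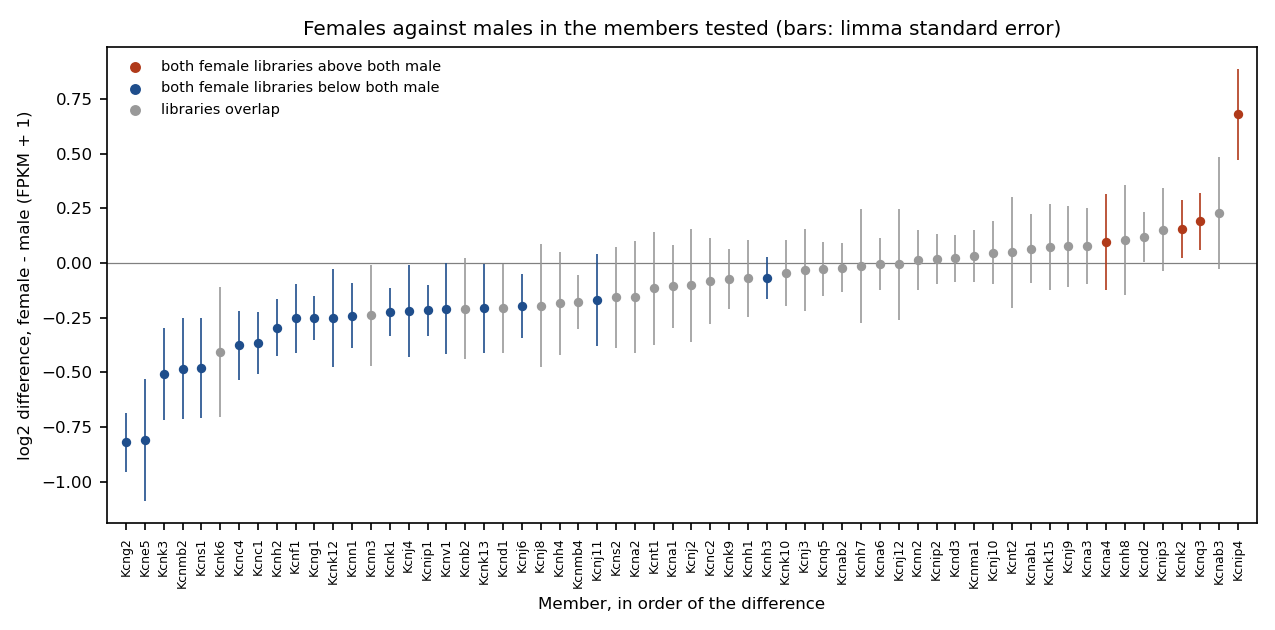
Log2 difference of FPKM + 1, female minus male (vertical axis), for the members tested that are reported here, in order of the difference, with the limma standard error as bars. Kcng2 and Kcne5 lie lowest near -0.8 and Kcnip4 highest at 0.68, and more genes have both female libraries below both male libraries (blue) than above (red).

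Kcng2, a silent subunit, was at 13.2 FPKM (interval 11.8 to 14.8) and 12.2 (10.8 to 13.7) in male control and BPA, and at 6.32 (5.33 to 7.44) and 7.25 (6.18 to 8.42) in females. The intervals of the sexes did not touch. The difference was -0.82 on the log2 scale (SE 0.135, limma adjusted p = 0.174, the smallest of the members). Of the 6 silent subunits tested, 5 had both female libraries below both male libraries, against 22.5% of rows. The same 5 were lower after quantile normalization, against 21.2% of rows, and these were Kcng2, Kcng1, Kcnf1, Kcns1 and Kcnv1. The family as a set was not tested. Kcng1 differed by -0.25 (limma adjusted p = 0.446).

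Kcne5 differed between the sexes by -0.81 (limma adjusted p = 0.396), and every male library was above every female library. This difference was -1.24 without female control and -0.38 without female BPA. Each of these fits set 1 female library against both male libraries, so treatment entered the value. Kcnk3 differed by -0.51 (limma adjusted p = 0.459) and Kcnmb2 by -0.48, each with both female libraries lower. Kcnip4, a KChIP protein, was at 2.2 and 1.69 FPKM in the male libraries and 3.91 and 3.5 in the female libraries. It was the member with the greatest difference upward, by 0.68 (SE 0.208, limma adjusted p = 0.359), and Kcnab3 and Kcnq3 followed with 0.23 and 0.19. With 1 library left out, these differences ranged from 0.55 to 0.81 for Kcnip4, 0.074 to 0.38 for Kcnab3 and 0.062 to 0.32 for Kcnq3. The 2 remaining genes with an unadjusted p under 0.05 were the fast delayed rectifiers Kcnc1, at 8.72 and 8.68 FPKM in males and 6.11 and 6.97 in females, and Kcnc4, at 8.37 and 8.47 in males and 7.04 and 5.55 in females. With treatment as a covariate 7 members had an unadjusted p under 0.05, against 14.3% of rows, and the smallest adjusted p of a member was 0.0597, for Kcng2.

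Choroid plexus markers also differed between the sexes, with 6 of 9 lower in both female libraries than in both male libraries and sums without Ttr of 14.3 to 17.1 FPKM in females and 22.5 to 32.4 in males. None of the 9 was at the lowest value. Of the 6 meningeal markers 4 were higher in both female libraries, with sums of 45.1 to 108 FPKM against 37.5 to 52.0. Of the 7 interneuron markers 2 were lower in both female libraries, with sums of 188 to 210 FPKM against 228 to 235. Among the 8 hippocampal neuron markers 4 were lower and 2 higher in both female libraries. The 7 oligodendrocyte markers had 3 lower and 2 higher. The part of these in the differences of the channel genes was not tested, and tissue taken at dissection and sex cannot be told apart with 1 pool per group.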

How the data were processed

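RNA-seq libraries were analysed from 4 pools of 3 newborn rat hippocampi, 1 per sex and treatment, grouped by the titles of the samples. Per the submitters' processing notes the tools were HISAT 0.1.6, Bowtie2 2.2.5 and RSEM and the build was rn6, with their roles not given in the sources used here. The authors deposited 1 FPKM value per row and library, scaled by length and depth, with no value under 0.01. Depth was estimated at 8560000 to 8820000 fragments from rows of 300 to 1500 bases, with 95.9 to 98.7% of low values within 0.15 of a whole number. Counting intervals rest on this estimate.

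Rows with a mean of at least 1 FPKM in all 4 libraries were compared on log2(FPKM + 1) with limma 3.58.1 (eBayes with trend, R 4.3.3), 2 libraries against 2 with no covariate, and p-values were adjusted over all 13542 rows by Benjamini-Hochberg. The script was tested on simulated data. Tables and intervals were made in Python 3.11.15 with pandas 2.3.3 and scipy 1.17.1. Promoters were matched by gene ID only, since RefSeq's build is GRCr8. Of the genes that the rule would take in RefSeq, Kcna10, Kcnd2l1, Kcnj1, Kcnk7, Kcnmb3 and Kcnu1 were not analysed here as members. No member was joined with a new gene model.

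Named genes were the 2 highest of each family in the vehicle libraries, the 5 largest differences each way, those past 0.5 within a sex, those with an unadjusted p under 0.05, the 3 largest sex differences each way, those listed for 1 sex and Kcna1, Kcnd2, Kcnq3, Kcnj6, Kcnj10, Kcnma1 and Kcnn2. Some genes that this rule names are counted with the members and their own values are not reported here. Other members were named after their values were seen. The members, the families and the lists of partner and marker genes were chosen with earlier results of these data known. Alternatives were quantile normalization, other filters, a pseudocount of 0.1, sex or treatment as covariate, eBayes without trend, sums with new gene models, a fold of 1 on the log2 scale and leaving out each library.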

Additional observations from a re-analysis of the deposited data

Results flagged for a closer look

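A set of 4 genes had a difference past 0.5 on the log2 scale between BPA and control in 1 sex and lay on the other side of 0 in the other sex. Kcnh4 differed by 0.082 in males and -0.53 in females, Kcnh7 by 0.33 and -0.53, Kcnj8 by 0.77 and -0.19, and Kcnk6 by 0.56 and -0.28. With 1 library per group, the difference between the sexes was not tested for any of them. The other members past 0.5 in a sex, Kcne5, Kcnt2, Kcna2 and Kcnt1, lay on the same side of 0 in both sexes. The share of all rows with opposite directions is not given here, so whether the members differ from other rows in this was not tested.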

How the results depend on the processing

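No member passed the adjusted p for treatment or for sex under any alternative run. The smallest adjusted p of a member ranged from 0.426 to 1 over the alternatives for treatment and from 0.0597 to 0.815 for sex, where 7 members passed an unadjusted p under 0.05. Over all rows, the number called for treatment was 0, but 2 with sex as a covariate, 6 without the trend, 637 at an unadjusted p and 0 to 3 when 1 library was left out (1 without male BPA, 3 without female control). Members past the size threshold in males (2 of 63) numbered 4 of 84 without a filter on low values, 0 of 31 at a mean of 5 FPKM or more and 0 at a log2 difference of 1. In females (6) they numbered 2 after quantile normalization, against 4.62% of rows, 1 of 32 at a mean of 5 FPKM and 0 at a log2 difference of 1. Shares of all rows under the other filters and the log2 difference of 1 are not given here. Whether the members changed more than other rows in those settings was not tested. Members whose treatment groups did not overlap (25 of 63) numbered 12 of 31 at a mean of 5 FPKM, where fewer genes are tested and no share of rows is given. They numbered 21 after quantile normalization, 9 above and 12 below the controls, against 16.7% and 16.6% of rows. Members below 0 for treatment (38 of 63, against 54.4% of rows) numbered 33 after quantile normalization, against 49.1% of rows. The cause was not tested.

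Of 409 values of single genes under alternatives, 387 kept their direction and 22 reversed, 20 of them when a library was left out, which assumes that the lone library varies like the others. For treatment, such a fit also sets 1 sex of a group against both sexes of the other, so the difference between the sexes enters the value. Kcnip4 was among those that reversed, although it was lower in BPA within males (-0.25) and within females (-0.13). A reversal there cannot show a change of direction within a sex. Quantile normalization reversed Kcnh2 to 0.040 and Kcnj10 to 0.0062. With 1 library left out, the mean difference of the genes that reversed ranged from -0.10 to 0.22 for Kcng1, -0.45 to 0.51 for Kcng2, -0.17 to 0.17 for Kcnh2, -0.47 to 0.022 for Kcnh4, -0.33 to 0.12 for Kcnh7, -0.56 to 0.18 for Kcnip4, -0.10 to 0.032 for Kcnj10, -0.27 to 0.011 for Kcnj6, -0.049 to 0.63 for Kcnj8, -0.21 to 0.041 for Kcnk1, -3.8e-05 to 0.53 for Kcnk3, -0.28 to 0.55 for Kcnk6, -0.38 to 0.0065 for Kcnn1 and -0.0062 to 0.095 for Kcnn2. It ranged from -1.12 to -0.029 for Kcne5 and from -0.63 to -0.037 for Kcnmb2, which kept their direction and were nearest 0 without female BPA. That fit set male BPA against the controls of both sexes. Within males alone, Kcne5 differed by -0.29 and Kcnmb2 by -0.23. Kcnj8, Kcnk3 and Kcnk6 were below 0 only without male BPA. The labels carry no replicate numbers. The fit with sex as a covariate, which sets BPA against control within each sex, called 0 of 63 members. At this depth, 3 fragments correspond to 0.365 to 0.371 FPKM over 1 kb, and the members under 1 FPKM, which rest on few fragments, were not tested.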
